A study of Caenorhabditis elegans with 18 samples.

Results

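The clec genes of Caenorhabditis elegans encode proteins with a C-type lectin-like domain. They were taken as every gene whose name begins with clec- in all 6 deposited tables, which gave 249 of the 42048 to 42400 genes listed per table. RefSeq, assembly WBcel235, held 248 of them by sequence name, 239 as protein-coding genes and 9 as pseudogenes. Tests were run on genes averaging 5 or more across the 4 libraries being compared. That left 44 clec genes in the messenger RNA (mRNA) table, 23, 20, 21 and 20 in the small RNA (sRNA) tables of lines 1, 2, 3 and 4, and 25 in the rde-11 sRNA table. In all, 59 clec genes passed in at least 1 table and 190 in none, and 17 passed both in the mRNA table and in an sRNA table.

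C-type lectin-like domains can bind carbohydrates, and the family is unusually large in nematodes. Many of the worm's clec genes are expressed in the intestine, and several change with infection, where some act downstream of the p38 mitogen-activated protein kinase PMK-1. A few serve other tissues: clec-87 and clec-88 encode the chondroitin proteoglycans CPG-5 and CPG-6, made with the oocyte and eggshell. Worm genes are also matched by secondary small interfering RNAs, which polymerases copy from transcripts, and MEG-3 and MEG-4 are proteins of the germ granules in which parts of that machinery gather. RDE-11 is a factor needed to build up secondary sRNAs during RNA interference.

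Whole worms grown at 20 C were compared, with 2 libraries per group. Lines 1, 2, 3 and 4 all carried meg-3(ax3055) together with meg-4(ax3052), meg-4(ax4310), meg-4(ax4311) and meg-4(ax4312) in turn, lines 2, 3 and 4 being strains JH3672, JH3673 and JH3674, and their sRNAs were set against those of N2, the wild-type strain, all as mixed populations on NA22 bacteria. The sRNAs of rde-11(hj37) young mothers and the mRNAs of line 1 young mothers (strain JH3475) were each set against N2 young mothers, all on HT115 bacteria carrying the L4440 vector. One label of line 2 says young mother while its title says mixed population, and the title was followed. Nothing in the labels ties the replicates to separate cultures, and p-values then measure only the spread between these libraries. All samples are whole animals, in which fewer cells of a type and less RNA per cell cannot be told apart. Levels are not per gene length, so they are compared between groups and not between genes.

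The mRNA libraries held 21994906 to 45231464 reads and the sRNA libraries 3820363 to 7465897. The targeted genes followed the labels: meg-3 (listed as gei-12) had an mRNA signal of 0.312 and 0.283 in line 1 against 92.3 and 94.5 in N2, and meg-4 (listed as C36C9.1) had no mRNA read in line 1 against 45.3 and 43.6 in N2. No mRNA of the rde-11 mutant was measured, so its sRNAs do not check the hj37 label. In line 1 the mRNA of rde-11 itself was lower, at 8.28 and 9.64 against 30.1 and 30.8 in N2 (log2 -1.66, limma adjusted p = 0.000201). The sRNAs of rde-11 were higher than in N2 in all 4 lines (limma log2 3.28, 2.06, 1.24 and 2.30 in lines 1 to 4). The N2 mixed-population libraries stood apart from each other. Their log2 values correlated across genes with r = 0.953, the lowest of the 9 groups, and the second held more of several clec sRNAs, with clec-166 at 65.3 and 199 RPM (reads scaled to a fixed library total), clec-50 at 4.03 and 12.6 RPM and clec-10 at 3.09 and 9.95 RPM. The summed sRNA of 10 intestine marker genes differed in the same way, at 28.2 and 66.2 RPM. All 4 lines were set against these same libraries.

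Near the limit of 5, the mRNA means of clec-53 and clec-147 were 4.88 and 5.29. In the sRNA tables the nearest means below and above it were 4.66 for clec-108 and 5.09 for clec-7 (line 1), 4.50 for clec-66 and 5.07 for clec-265 (line 3), 4.88 for clec-204 and 5.45 for clec-85 (line 4) and 3.94 for clec-44 and 5.15 for clec-123 (rde-11). In the line 2 table clec-66 averaged 4.99998 and clec-81 5.34.

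The first question was how clec mRNAs differed in line 1. Most of them were somewhat higher. Of the 44 tested, 9 rose (clec-51, clec-47, clec-166, clec-67, clec-223, clec-86, clec-73, clec-1 and clec-62) and 3 fell (clec-87, clec-88 and clec-91), by limma with Benjamini-Hochberg adjustment over all 9088 genes. Over all genes 3.39% rose and 6.86% fell. In 29 clec genes (65.9%) both line 1 libraries lay above both N2 libraries, where 23.2% of all genes did, and in 3 (6.82%) both lay below, where 48.1% of all genes did. The log2 difference was above 0 in 38 of the 44, where 37.4% of all genes were above 0. The median log2 difference, line 1 minus N2, was 0.23 over the 44 clec genes and -0.09 over all genes.

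Among the 44, clec-51 had the largest log2 rise, with a signal of 58.4 and 64.8 in line 1 against 21.96 and 28.5 in N2. Its log2 difference was 1.26 ± 0.12 (SE; limma adjusted p = 0.00248). In RefSeq clec-51 overlaps faah-1, a fatty acid amide hydrolase gene, whose mRNA was 116 and 120 in line 1 against 41.1 and 38.3 in N2 (log2 1.55, limma adjusted p = 4.51e-05), so the reads of the pair may not be separable. clec-47 had 7.57 and 9.14 in line 1 against 2.95 and 4.94 in N2, a log2 difference of 0.95 ± 0.20 (limma adjusted p = 0.0374). Its N2 mean of 3.94 was below 5, so clec-47 passed the limit only through line 1, where it was higher. For clec-166 the values were 14.7 and 13.4 in line 1 against 9.997 and 6.82 in N2, with a log2 difference of 0.70 ± 0.16 (limma adjusted p = 0.0441). In each of these the groups did not overlap, though the N2 values of clec-47 and clec-166 were the more scattered ones.

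clec-223 had 24.7 and 25.9 in line 1 against 16.5 and 16.4 in N2 (log2 0.59 ± 0.08, limma adjusted p = 0.0120). Its neighbour clec-222, picked after its values were seen, stood at 14.6 and 10.6 in line 1 against 15.8 and 10.8 in N2, with overlapping groups. clec-86 had 18.2 and 22.3 in line 1 against 13.1 and 13.9 in N2 (log2 0.54, limma adjusted p = 0.0374), and alh-10, which overlaps it, had 34.7 and 29.2 in line 1 against 31.6 and 35.5 in N2. Among the smaller rises clec-73 stood at 12.2 and 11.5 in line 1 against 8.55 and 8.49 in N2, clec-1 at 112 and 128 in line 1 against 93.5 and 97.7 in N2, and clec-62 at 49.2 and 47.8 in line 1 against 36.7 and 40.99 in N2, with log2 differences of 0.43, 0.32 and 0.31.

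**Figure D1:**
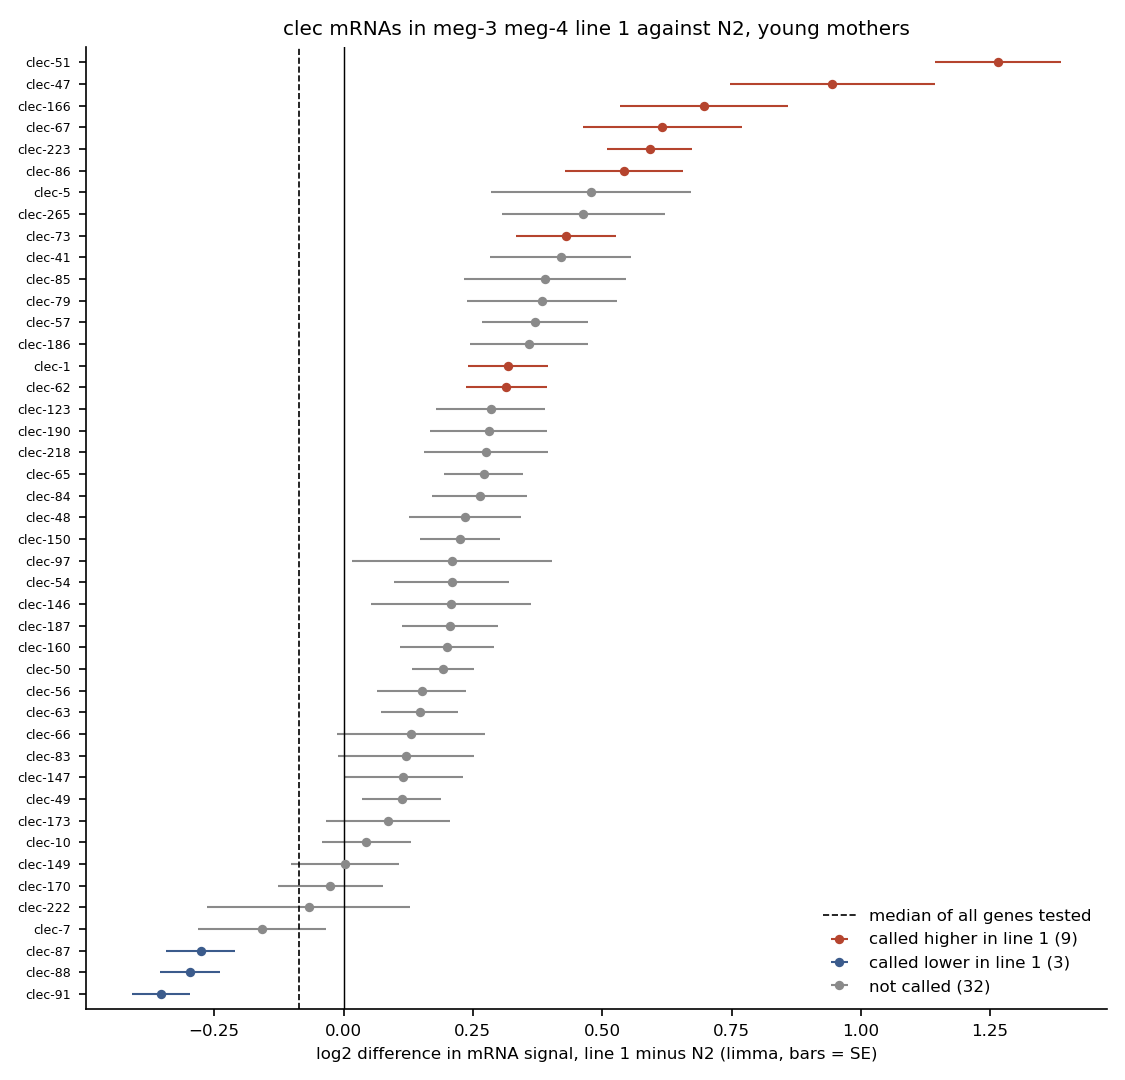
The log2 difference in mRNA signal (x axis, line 1 minus N2) is plotted for the 44 clec genes tested, with bars for the limma standard error and a dashed line at the median of all genes tested. The 9 genes called higher and 3 called lower are coloured, and 38 of the 44 lie above 0.

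Genes with a known part in defence moved unevenly. clec-67, a target of the PMK-1 pathway, had 34.6 and 46.0 in line 1 against 22.7 and 28.96 in N2 (log2 0.62 ± 0.15, limma adjusted p = 0.0493). clec-85, another target of that pathway, had 76.7 and 87.9 in line 1 against 51.9 and 74.9 in N2 (log2 0.39, limma adjusted p = 0.110). clec-41, which changes with infection, had 226 and 259 in line 1 against 155 and 210 in N2 (log2 0.42, limma adjusted p = 0.0752). The groups did not overlap for either of them, and neither passed the test. clec-49, needed for defence against Serratia marcescens, averaged 67.4 in line 1 and 62.3 in N2. Other genes with known roles, clec-60, clec-39, clec-17, clec-4, clec-42 and the synaptic gene clec-38, passed the limit of 5 in no table.

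Of 7 genes of the p38 pathway only pmk-1, the kinase itself, was called, with 40.9 and 39.6 in line 1 against 14.9 and 15.9 in N2 (log2 1.33 ± 0.08, limma adjusted p = 0.000201). In mixed populations its sRNAs were at 8.61 and 9.77 RPM in line 1 against 2.61 and 0.785 RPM in N2. They were called higher (limma adjusted p = 0.0116), but the N2 values were below the limit for a test. The sRNAs of pmk-1 thus passed that limit only through line 1, where they were higher. Among 7 tested regulators of immunity the receptor gene fshr-1 rose (log2 0.39, limma adjusted p = 0.0374). Lysozyme genes rose in 2 of 6 cases, lys-2 with 227 and 239 in line 1 against 112 and 159 in N2 and lys-1 with 665 and 681 in line 1 against 454 and 537 in N2. Galectins, which are lectins of another fold, rose in 3 of 11 cases (lec-4, lec-5 and lec-6, log2 0.29, 0.34 and 0.27). Of 13 saposin-like genes 0 passed in limma, with 2 at an unadjusted p under 0.05, 0 in edgeR and 2 in DESeq2. Of 3 antimicrobial peptide genes 0 passed in limma, edgeR or DESeq2, with 0 at an unadjusted p under 0.05 in limma.

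The 3 clec genes that fell included both eggshell proteoglycans. clec-87 had 786 and 770.5 in line 1 against 954 and 931 in N2 (log2 -0.28 ± 0.07, limma adjusted p = 0.0470). clec-88 had 169 and 168 in line 1 against 201 and 213 in N2 (log2 -0.30 ± 0.06, limma adjusted p = 0.0340). clec-91 had 143 and 142 in line 1 against 179 and 186 in N2 (log2 -0.35 ± 0.06, limma adjusted p = 0.0184). Each fall was small next to the level and larger than the spread within either group. Other chondroitin proteoglycans moved alike in part: of 7 tested, cpg-2, cpg-3 and cpg-8 fell (1 with TMM scaling, a trimmed-mean rescaling of the libraries). RefSeq has clec-87 overlapping iars-2, clec-88 overlapping K10B2.2 and clec-91 overlapping ZK858.8. The mRNA of iars-2 was 170 and 168 in line 1 against 173 and 180 in N2. Of the genes beside them, rsa-1 next to clec-87 and ani-2 next to clec-88 fell (log2 -0.27 and -0.25, limma adjusted p = 0.0391 and 0.0495). mel-26, next to clec-91, was not called (log2 -0.17, limma adjusted p = 0.0755).

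**Figure D2:**
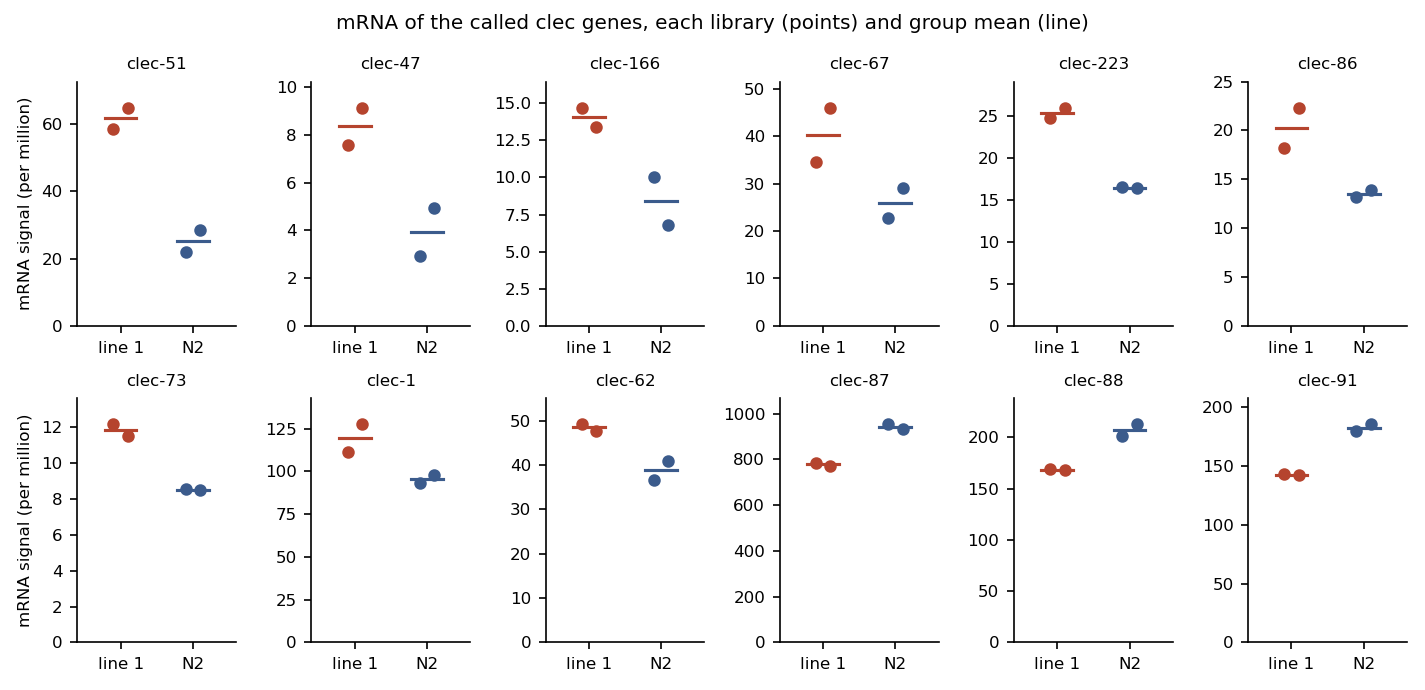
The scaled mRNA signal (y axis, from 0, a scale for each gene) is shown for the 12 called clec genes in each library of line 1 and of N2, with a line at each group mean. In every panel the points of the groups are apart, relative to the level by most for clec-51 and by least for clec-1.

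Markers of whole tissues were set beside these groups. The 12 oocyte and eggshell markers summed to 9286 and 9398 in line 1 against 11444 and 10948 in N2, and 6 of them fell (2 with TMM scaling). Those of the intestine, 10 in number, summed to 2766 and 3052 in line 1 against 2608 and 2522 in N2, with a median log2 difference of 0.16, and 0 of them passed in limma, 3 at an unadjusted p under 0.05, 2 in edgeR and 4 in DESeq2. Of the 10 sperm, 3 hypodermis, 5 body wall muscle, 4 neuron and 6 germline markers tested 0 passed in limma, with 1, 0, 1, 1 and 3 at an unadjusted p under 0.05. edgeR called 1 muscle marker, and DESeq2 2 muscle and 2 hypodermis markers, all higher. No oocyte, eggshell or intestine marker was without a read, and their part in the clec differences was not tested. Summed over the 44 clec genes the signal was 3656 ± 88.1 in line 1 and 3477 ± 55.6 in N2 (SD, n = 2 each).

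The mRNA calls rest on both N2 libraries: 0 clec genes were called without the first and 1 without the second, and the count was 9 to 16 without a line 1 library. TMM scaling gave 7 higher and 2 lower (3.31 and 3.22% of all genes), losing clec-67, clec-87 and clec-166, edgeR gave 10 and 1 (5.04 and 1.68%) and DESeq2 17 and 3 (8.35 and 3.15%). In comparison, the authors' deposited table has 11 higher and 3 lower among 42 clec genes with an adjusted p. For the fits without a library, shares of all genes are not given, so those counts are not compared with all genes.

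A second group of clec mRNAs was nearly silent in N2 and lay below the limit of 5. In the fit with no filter on low values, 7 of 188 such clec genes with a read were higher in line 1 (3.72%), where 0.154% of all 18142 genes below the limit were. These were singled out after their values were seen. clec-204 had 95 and 154 reads in line 1 against 17 and 15 in N2, a ratio of 10.4 in signal, and was the best covered of them. Signal ratios of line 1 over N2 were 7.82 for clec-161, 6.59 for clec-219, 5.80 for clec-208, 7.29 for clec-95, 9.28 for clec-137 and 10.7 for clec-92. The reads behind them were few: clec-161 had 30 and 61 in line 1 against 8 and 7 in N2, and clec-92 had 13 and 29 in line 1 against 3 and 2 in N2. All 7 had higher signal in both line 1 libraries than in both N2 libraries. They were chosen for being called higher, so this is no further evidence. In RefSeq clec-137 overlaps pqn-35 and clec-161 overlaps 4 noncoding genes.

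The second question was how clec sRNAs differed in the 4 lines. Reads on all 249 genes came to 557 and 689 RPM (line 1), 483 and 532 (line 2), 481 and 537 (line 3) and 442 and 517 (line 4), against 706 and 907 RPM in N2. By limma, clec genes that fell numbered 4 of 23 tested (line 1, where 11% of all genes fell), 6 of 20 (line 2, 44.5%), 6 of 21 (line 3, 47.1%) and 5 of 20 (line 4, 59.4%). As shares these are 17.4, 30, 28.6 and 25%. The shares for lines 2, 3 and 4 were below those of all genes. In limma 0 clec genes rose in any line, with 1, 0, 0 and 0 at an unadjusted p under 0.05 in lines 1 to 4, where 2.29, 4.66, 4.91 and 4.45% of all genes rose. The median clec log2 difference was 0.05, -0.40, -0.45 and -0.30 in lines 1 to 4, and that of all genes -0.32, -0.54, -0.57 and -0.73.

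The direction of some genes depended on the scaling. TMM scaling moved the median of all genes to between -0.0148 and 0.00153. Relative to that centre 3, 2, 2 and 2 clec genes fell in lines 1 to 4, where 5.13, 6.31, 6.6 and 6.64% of all genes fell. clec-90 and clec-125 then rose in lines 2 and 3 and clec-125 in line 4, so that 0, 2, 2 and 1 rose, where 3.9, 12, 13.9 and 14.1% of all genes did. edgeR called 0, 2, 2 and 1 higher (3.76, 11.8, 13.8 and 13.8% of all genes) and DESeq2 0, 1, 0 and 0 (4.07, 9.6, 10.6 and 11.6%). Of 18 clec genes tested in all 4 tables, clec-12, clec-119, clec-238 and clec-266 fell in every line, where 10.2% of all genes did. With TMM scaling clec-12 and clec-238 did, against 3.66% of all genes.

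clec-12 showed the deepest loss of sRNAs. It had 8.11 and 9.77 RPM (line 1), 12.4 and 10.9 (line 2), 6.24 and 8.94 (line 3) and 6.697 and 7.15 (line 4), against 62.9 and 81.7 RPM in N2. The log2 differences were -2.88 ± 0.25, -2.52 ± 0.22, -3.10 ± 0.24 and -3.20 ± 0.23 (limma adjusted p = 5.01e-07, 1.49e-08, 7.99e-09 and 1.49e-10). Every line library lay far below both N2 libraries, and every scaling, filter, tool and left-out library tried kept the call in each line. The exact 95% counting interval of the ratio of line 1 over N2 reads, 73 against 577, was 0.0962 to 0.159, which covers counting error only.

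The gene beside clec-12, the germline stem cell gene sygl-1, was not called in line 1, with 38.9 and 30.5 RPM in line 1 against 43.7 and 32.98 RPM in N2. It was lower in lines 2 and 4 (log2 -0.70 and -0.53, limma adjusted p = 0.0158 and 0.0453). The mRNA of clec-12 was low in both groups, 2.23 and 3.38 in line 1 against 2.90 and 3.29 in N2, under the limit for a test. In rde-11 young mothers the sRNAs of clec-12 were 118 and 93.4 RPM against 116 and 102 RPM in N2 (log2 -0.05 ± 0.15, limma adjusted p = 0.837).

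clec-238 had 16.2 and 17.6 RPM (line 1), 11.5 and 14.2 (line 2), 16.4 and 17.3 (line 3) and 13.4 and 12.8 (line 4), against 38.2 in both N2 libraries. Its log2 differences ran from -1.51 to -1.13. clec-119, which lies beside the developmental timing gene lin-42, had 70.6 and 63.7 RPM (line 1), 86.0 and 78.5 (line 2), 78.6 and 79.7 (line 3) and 58.3 and 64.2 (line 4), against 159 and 126 RPM in N2. Its log2 differences ran from -1.20 to -0.78. In RefSeq 1 noncoding gene overlaps clec-119, so the reads counted for clec-119 may not all be its own. The mean mRNA signal of clec-238 and clec-119 was 0.410 and 0.986 in N2, both in young mothers, where their mRNA was hardly counted. The sRNAs of lin-42 passed in no line, at 109 and 160 RPM in line 1 against 75.2 and 134 RPM in N2.

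clec-266 had 9.59 and 9.03 RPM (line 1), 7.05 and 8.31 (line 2), 9.44 and 8.94 (line 3) and 7.10 and 7.49 (line 4), against 28.2 and 17.01 RPM in N2. It overlaps kqt-1, a potassium channel gene, whose sRNAs passed in no line, at 6.15 and 5.86 RPM (line 1), 7.51 and 7.94 (line 2), 10.2 and 10.3 (line 3) and 8.71 and 9.20 (line 4), against 9.49 and 7.07 RPM in N2. With TMM scaling the fall of clec-266 missed the threshold in every line (limma adjusted p = 0.0511 to 0.101), and that of clec-119 in lines 2, 3 and 4 (0.0666 to 0.274).

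**Figure D3:**
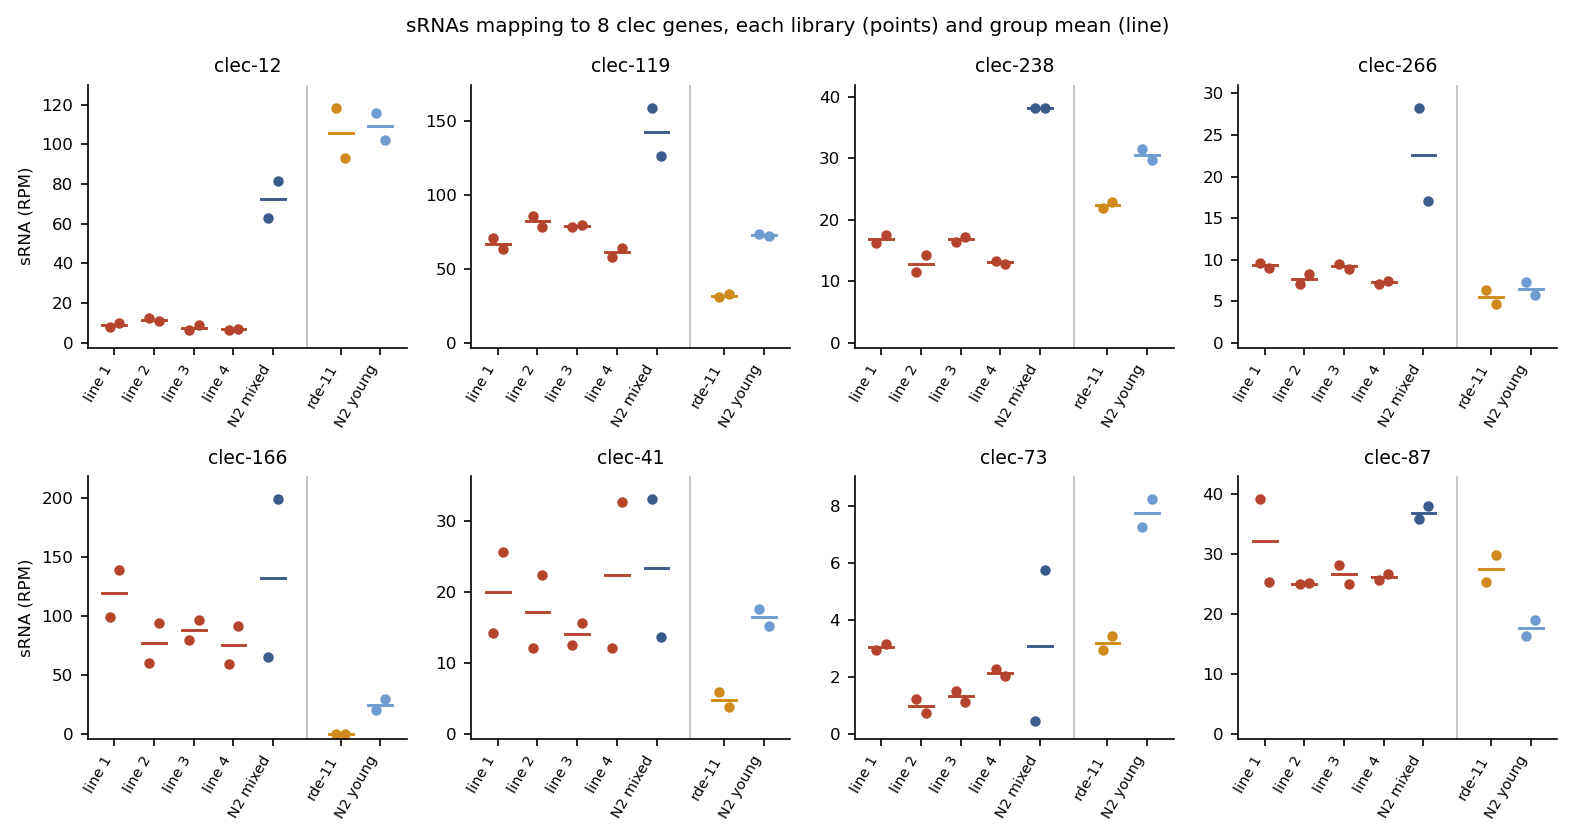
sRNAs in RPM (y axis, linear, a scale for each gene) are shown for 8 clec genes in each library of lines 1 to 4, N2 mixed populations, rde-11 and N2 young mothers, with a line at each group mean and a grey bar between the separately grown sets. clec-12 is at 6.24 to 12.4 RPM in the 8 line libraries and at 62.9 to 118 RPM in the other 6, while clec-166 is at 0.492 and 0.406 RPM in rde-11.

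Calls made in 1 or 2 lines were closer to the threshold. clec-143 fell in lines 2 and 4 (log2 -0.53 and -0.64, limma adjusted p = 0.0490 and 0.0171), and clec-87 in line 2 (log2 -0.54, limma adjusted p = 0.0425). Both were above 0 in those lines with TMM scaling, at 0.03, 0.10 and 0.02. ZK666.1, next to clec-143, fell in the same lines (log2 -0.60 and -0.96), and iars-2, which overlaps clec-87, fell in line 2 (log2 -0.80). clec-63 and clec-85 fell in line 3 (log2 -1.03 and -0.90, limma adjusted p = 0.0455 and 0.0484). clec-63 had 2.28 and 3.61 RPM there against 4.75 and 9.95 RPM in N2, and clec-85 had 3.81 and 3.04 RPM against 6.17 and 8.38 RPM in N2. Both averaged below 5 in line 3, so they passed the limit of 5 there only through N2, where they were higher. RefSeq has clec-85 overlapping Y54G2A.40, whose sRNAs also fell in line 3 (log2 -1.10, limma adjusted p = 0.00270). The eggshell gene clec-88 had 7.13 and 7.81 RPM in line 1 against 10.9 and 10.2 RPM in N2 and passed in no line.

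clec-166 had 99.3 and 139 RPM (line 1), 60.1 and 94.0 (line 2), 80.1 and 96.6 (line 3) and 59.7 and 91.8 (line 4), against 65.3 and 199 RPM in N2. The libraries of the lines lay between the N2 libraries or just under the lower one, and clec-166 passed in no line. In line 1 it was called lower without the first N2 library (log2 -0.75, limma adjusted p = 0.00940) and higher without the second (log2 0.84, limma adjusted p = 0.00327).

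The counts moved with single libraries as well. Shares of all genes in those fits are not given, so the counts are not compared with all genes. Without the first N2 library 10, 13 and 8 clec genes were called in lines 2, 3 and 4, and without the second 9 in line 1. Without its own second library line 1 had 2, and lines 2 and 3 had 3 each without either of their own. The authors' deposited table calls clec-12 in every line, clec-119 also in line 1 and clec-238 also in line 2.

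The sRNAs were also summed by whether the gene had mRNA in young mothers, without a test of the difference between the sums. The 205 clec genes with a mean mRNA signal below 5 summed to 289 ± 4.77 RPM (line 1), 290 ± 10.8 (line 2), 293 ± 24.8 (line 3) and 242 ± 3.63 (line 4), against 480 ± 9.96 RPM in N2 (SD, n = 2 each). These are ratios of 0.603, 0.604, 0.611 and 0.504, and without clec-12, a choice made after seeing the data, they were 0.687, 0.683, 0.701 and 0.576. The 44 clec genes with mRNA summed to 334 ± 88.4, 218 ± 45.2, 216 ± 14.2 and 237.7 ± 49.2 RPM in lines 1 to 4, against 327 ± 132 RPM in N2, where the libraries were at 234 and 420. In this group both line libraries lay below both N2 libraries for 6 of 44, 9 of 44, 14 of 44 and 9 of 43 genes with a read (lines 1 to 4), or 13.6, 20.5, 31.8 and 20.9%. Over all genes with mRNA and an sRNA read the shares were 45.9, 62.3, 64.6 and 66.6%. For the clec genes below 5 they were 20.3, 22.4, 23.3 and 24.8%, with 17.9, 22.7, 23.6 and 22.1% over all genes of that kind. Of the 44 clec genes with mRNA, only 14, 11, 12 and 13 averaged 5 RPM of sRNA or more in the comparisons of lines 1 to 4. The shares were not matched for sRNA level. The part of few reads, or of the wide N2 spread at these genes, in those counts was not tested.

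Markers of other tissues gave sRNA sums that differed too. The 12 oocyte and eggshell markers summed to 780.5 and 679.7 RPM in line 1, with 541 and 539, 531 and 584, and 505 and 524 RPM for lines 2, 3 and 4, against 1135 and 844 RPM in N2. Intestine markers summed to 46.7 and 81.8 RPM in line 1, with 29.9 and 38.8, 25.9 and 35.6, and 39.4 and 58.7 RPM for lines 2, 3 and 4, against 28.2 and 66.2 RPM in N2. Oocyte and eggshell markers were thus below N2 in every line library, while for the intestine the libraries of each line overlapped those of N2. The sums of germline, body wall muscle and hypodermis markers were also below N2 in every line library, those of sperm and neuron markers not in all. Of 10 oocyte and eggshell markers tested, 1, 9, 9 and 10 fell in lines 1 to 4. Over all genes 11, 44.5, 47.1 and 59.4% fell. With TMM scaling 0, 1, 1 and 1 of these markers fell, with 5.13, 6.31, 6.6 and 6.64% of all genes. The part of the tissue markers in the clec values was not tested.

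Among the lines themselves, without N2, 1 of 20 clec genes differed by a limma F test over the 8 libraries, where 20.6% of all 7882 genes did. It was clec-66, with 7.13 and 10.3 RPM (line 1), 2.76 and 5.54 (line 2), 3.65 and 2.66 (line 3) and 6.03 and 5.28 (line 4) (limma adjusted p = 0.0487). Line 1 was above the other lines for it, without overlap. Those other lines together averaged below 5, so clec-66 passed the limit of 5 only through line 1. With TMM scaling and in edgeR 0 differed, where 7.13 and 6.56% of all genes did. It was also 0 without the first line 2 library or either line 3 library, 2 without the second line 2 library and 3 without the first line 1 library. For the fits without a library, shares of all genes are not given. clec-12 averaged 8.94, 11.7, 7.59 and 6.92 RPM in lines 1 to 4 (limma adjusted p = 0.109).

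The third question was how clec sRNAs differed in rde-11 young mothers. Reads on all 249 genes came to 491 and 480 RPM in rde-11 against 651 and 624 RPM in N2. Of 25 clec genes tested, 6 fell (24.0%, with 8.06% of all genes) and 2 rose (8.0%, with 15% of all genes), by limma. Of those that fell, clec-166, clec-41 and clec-73 averaged below 5 in rde-11 and passed the limit of 5 only through N2. With TMM scaling 8 fell and 0 rose (11.3 and 7.68% of all genes), in edgeR 8 and 0 (11.5 and 7.94%) and in DESeq2 4 and 0 (6.74 and 4.74%). At an unadjusted p under 0.05 the higher ones numbered 3 with TMM scaling, 4 in edgeR and 0 in DESeq2. The median log2 difference, rde-11 minus N2, was -0.13 over the 25 clec genes and 0.13 over all genes.

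clec-166 lost nearly all its sRNAs, with 0.492 and 0.406 RPM in rde-11 against 20.7 and 29.5 RPM in N2. These values rest on 4 reads in rde-11 and 231 in N2, a ratio of 0.0175 with an exact 95% counting interval of 0.00474 to 0.0455. The log2 difference was -4.15 ± 0.27 (limma adjusted p = 4.89e-06). In line 1 young mothers, where the mRNA of rde-11 was lower, clec-166 had the higher mRNA given above. A link between these values was not tested. clec-166 overlaps no other gene in RefSeq, and its neighbours had at most 0.985 RPM in any of the 4 libraries.

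clec-41 had 5.91 and 3.86 RPM in rde-11 against 17.6 and 15.3 RPM in N2 (log2 -1.59 ± 0.24, limma adjusted p = 0.00130). For clec-119 the values were 30.8 and 32.7 RPM in rde-11 against 73.5 and 72.1 RPM in N2 (log2 -1.17 ± 0.14, limma adjusted p = 0.000348). Its neighbour lin-42 fell too, to 32.5 and 26.99 RPM in rde-11 against 104.3 and 97.5 RPM in N2 (log2 -1.73, limma adjusted p = 3.12e-05). These 2 clec genes and clec-166 are also the ones the authors' deposited table calls, and they passed under every alternative tried.

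clec-73 had 2.95 and 3.45 RPM in rde-11 against 7.28 and 8.24 RPM in N2 (log2 -1.06, limma adjusted p = 0.0138). clec-157 had 8.86 and 8.32 RPM in rde-11 against 18.3 and 15.05 RPM in N2 (log2 -0.88, limma adjusted p = 0.0106). clec-143 had 7.38 and 8.93 RPM in rde-11 against 12.7 and 14.8 RPM in N2 (log2 -0.69, limma adjusted p = 0.0360). The groups did not overlap in any of them, and ZK666.1, next to clec-143, fell alike (log2 -0.67). Close to the threshold, clec-150 had 4.43 and 5.07 RPM in rde-11 against 8.45 and 8.24 RPM in N2 (limma adjusted p = 0.0502), and clec-238 had 21.9 and 22.9 RPM in rde-11 against 31.5 and 29.7 RPM in N2 (limma adjusted p = 0.0722).

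The sRNAs that rose were those of clec-125 and of the eggshell gene clec-87. clec-125 had 23.9 and 24.6 RPM in rde-11 against 15.3 and 15.5 RPM in N2 (log2 0.62, limma adjusted p = 0.0226). clec-87 had 25.4 and 29.8 RPM in rde-11 against 16.4 and 18.96 RPM in N2 (log2 0.61, limma adjusted p = 0.0299). Both calls were lost with TMM scaling, which put their log2 differences at 0.47 and 0.46. The sRNAs of iars-2, which overlaps clec-87, were 44.3 and 50.7 RPM in rde-11 against 37.3 and 37.9 RPM in N2. They were not called (log2 0.33, limma adjusted p = 0.140). The 12 oocyte and eggshell markers summed to 897 and 1083 RPM in rde-11 against 701 and 851 RPM in N2, and 4 of the 10 tested rose (0 with TMM scaling). The part of these in the clec-87 value was not tested.

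The fall was spread over the clec genes with mRNA, most of which had too few sRNA reads for a test. Of 42 clec genes with a mean mRNA signal of at least 5 and an sRNA read, both rde-11 libraries lay below both N2 libraries in 25 (59.5%) and above them in 2, clec-87 and clec-91. Over all 8862 such genes 18.8% lay below and 44.3% above. Of 154 other clec genes with a read 34 lay below (22.1%), where 17.4% of all such genes did. Summed sRNAs of the clec genes with mRNA were 110 ± 12.8 RPM in rde-11 and 183 ± 0.987 RPM in N2 (SD, n = 2 each), a ratio of 0.604, or 0.697 without clec-166 (left out after its value was seen). Those of the other clec genes were 375 ± 20.3 RPM in rde-11 and 454 ± 20.0 RPM in N2, a ratio of 0.826.

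Single genes of this kind, named after their values were seen, had few reads. clec-66 had 6 reads in rde-11 against 42 in N2, a ratio of 0.145 (exact 95% counting interval 0.0503 to 0.342). clec-65 had 11 against 44 (ratio 0.253, interval 0.118 to 0.499), clec-50 had 19 against 53 (0.363, 0.203 to 0.624) and clec-63 had 20 against 47 (0.431, 0.242 to 0.742). In N2 young mothers the mRNA signal of these 4 averaged 13.5, 74.6, 367 and 586. Each had 6.39 RPM of sRNA or less in every rde-11 and N2 young mother library. The mRNA and sRNA scales differ and are not compared, nor are levels between these genes. clec-63, clec-65 and clec-66 lie in 1 run of neighbours, clec-62 to clec-66. In the fit with no filter on low values 10 of 171 clec genes below the limit fell in rde-11 (5.85%, with 0.811% of all such genes).

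Intestine markers and lysozymes were set beside these values, and few of them passed the limit for a test. The 10 intestine markers summed to 23.6 and 27.6 RPM in rde-11 against 46.3 and 43.3 RPM in N2, with a read for each, and 2 of the 4 tested, gtl-1 and vha-6, fell. The 16 lysozyme genes summed to 15.01 and 13.6 RPM in rde-11 against 31.7 and 27.2 RPM in N2, and 1 of the 2 tested, lys-4, fell. Their part in the clec differences was not tested.

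**Figure D4:**
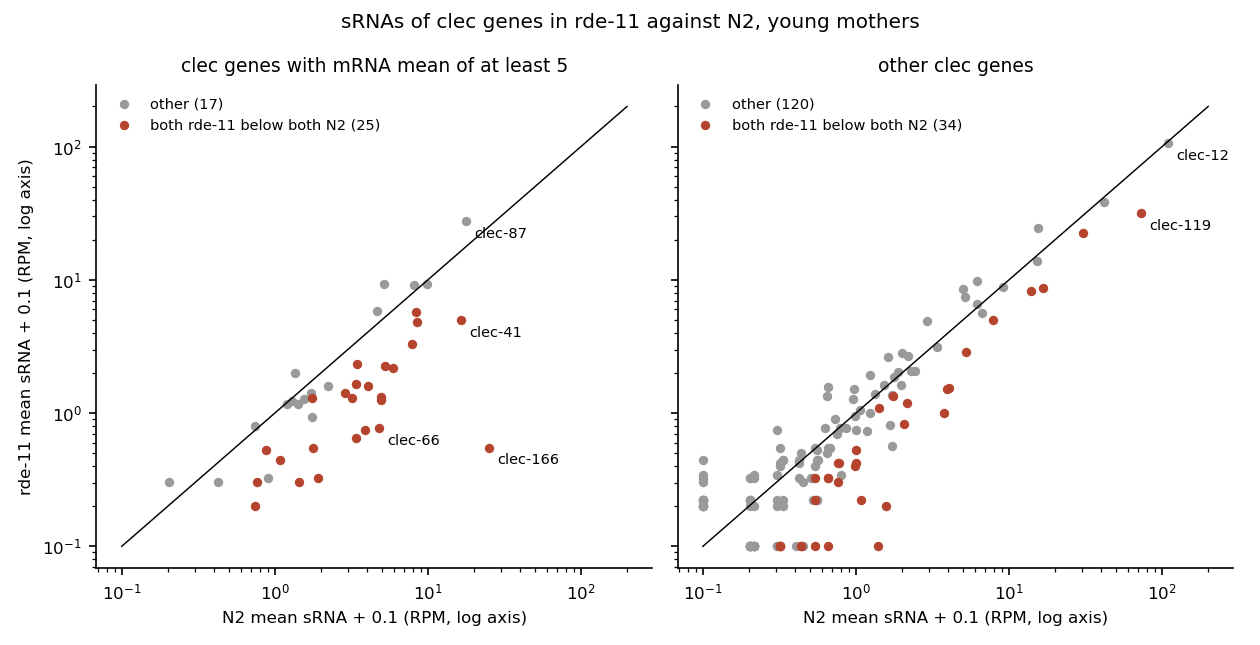
Mean sRNA + 0.1 in RPM (log axes) in rde-11 (y) is plotted against N2 (x) for each clec gene with a read, with the 42 genes whose mRNA mean was at least 5 on the left, the 154 others on the right and a line of equal values. Coloured points are the 25 and 34 genes in which both rde-11 libraries lay below both N2 libraries.

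Leaving out 1 library lowered the 8 calls to between 3 and 5, with 3 without the first N2 library. clec-166, clec-41 and clec-119 were called in each of those fits. Shares of all genes in those fits are not given, so the counts are not compared with all genes.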

How the data were processed

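The submitters' processing notes name the build ce10 and the tools HTSeq, HISAT2, Bowtie2, cutadapt and DESeq2. Per the labels' protocols, a 5' polyphosphatase preceded sRNA library making, and ribosomal RNA was removed before mRNA library making. The annotation, strand setting and filters are not given in the sources used here, so reads of overlapping or antisense genes cannot be separated. The authors deposited sRNAs in RPM and mRNAs as a signal scaled by library. The authors also deposited log2 fold changes and adjusted p-values, used here only where their table is named.

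The planned main test was limma (3.58.1, R 4.3.3) with a mean trend on log2(value + 1), which understates changes of low genes, on genes averaging 5 or more, within each table, 2-sided, with Benjamini-Hochberg adjusted p below 0.05. Whole reads were recovered by dividing by the value of 1 read, 100% of values being whole within 0.02, for edgeR 4.0.16 (11 clec genes called in the mRNA table and 8 in the rde-11 table) and DESeq2 1.42.0. Alternatives were TMM scaling, no filter, a mean of at least 10, a pseudocount of 5, a replicate block and leaving out each library. Fits were checked on simulated data.

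The members and gene lists were chosen with earlier results of these data known. Named were called genes without overlap, the 8 with most signal in N2, genes called in 3 or more lines and a list of known roles; others are said to be picked later. The list of known clec roles and the lists of the p38 pathway, immune regulators, lysozymes, saposin-like genes, galectins, antimicrobial peptides, chondroitin proteoglycans and tissue markers are described by counts. Replicate numbers pair no samples. RefSeq, assembly WBcel235, gave names, overlaps and neighbours only.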

Additional observations from a re-analysis of the deposited data

Results flagged for a closer look

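clec-66 differed among the 4 lines, which is a difference between groups under the same contrast by a test of the difference itself (limma F test over the 8 line libraries, adjusted p = 0.0487). Its means were 8.69 RPM in line 1, 4.15 in line 2, 3.16 in line 3 and 5.65 in line 4, against 3.32 and 8.38 RPM in the N2 libraries. Lines 2, 3 and 4 together averaged below 5, so clec-66 passed the limit of 5 only through line 1, where it was highest. It did not pass with TMM scaling (limma adjusted p = 0.151) or in edgeR (adjusted p = 0.145). By the main limma F test 20.6% of all genes differed among the lines.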

How the results depend on the processing

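Only 8 of 41 named calls passed under every alternative: clec-12 in all 4 lines, clec-238 in line 2, and clec-166, clec-41 and clec-119 in rde-11. For the 41, 302 repeats kept the call, 133 lost it and 8 reversed. The called counts became, with DESeq2, 20 (line 1 mRNA), 2, 3, 1 and 1 (sRNAs of lines 1 to 4) and 4 (rde-11). With no filter they were 1 in line 1 sRNAs and 17 in rde-11, and with TMM scaling and edgeR 3 and 3 in line 4. Among lines 0 clec genes differed with TMM scaling, no filter, a mean of at least 10 and edgeR, and 2 with a pseudocount of 5. Reversed were clec-143 in line 2 (TMM 0.0263, edgeR 0.0178), clec-143 in line 4 (TMM 0.10, edgeR 0.0925, DESeq2 0.0969) and clec-87 in line 2 (TMM 0.0213, edgeR 0.019, DESeq2 0.0001). Leaving out each library in turn gave 0 to 16 calls for line 1 mRNA, 2 to 9, 3 to 10, 3 to 13 and 4 to 8 for sRNAs of lines 1 to 4, 3 to 5 for rde-11 and 0 to 3 among lines; a lone library was then assumed to vary like the other group. For the counts with no filter, a mean of at least 10, a pseudocount of 5 or 1 library left out, shares of all genes are not given. Nor are they for genes called lower in lines 1 to 4 by edgeR or DESeq2. Those counts are therefore not compared with all genes. The causes were not tested.

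With a replicate block the counts were 24 of 44 for line 1 mRNA, 13 of 25 for rde-11 and 8 of 20 among lines. For sRNAs of lines 1 to 4 they were 6 of 23, 7 of 20, 4 of 21 and 6 of 20. Shares of all genes called with the block are not given here, so these counts are not compared with all genes. Among calls the block added were clec-50, higher in line 1 (limma adjusted p = 0.00455), clec-143, lower in line 1 (0.00982), and clec-166, lower in lines 2 and 4 (0.0203 and 0.0164). The labels give no reason to pair equal numbers, and deviations of equal-numbered libraries correlated with r = 0.287 (mRNA), 0.528, 0.0516, -0.146 and -0.253 (lines 1 to 4) and 0.315 (rde-11).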

Other observations

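Below the limit for a test, and picked after its values were seen, clec-256 had sRNA reads in every line library and none in N2: 5 and 6 reads (line 1), 9 and 3 (line 2), 9 and 12 (line 3) and 14 and 6 (line 4), against 0 in both N2 libraries.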
